A study of Homo sapiens with 12 samples.

Results

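The genes described here are 9 genes of cholesterol export and of the liver X receptor (LXR) pathway: ABCA1, ABCG1, MYLIP, NPC1, NPC2, APOE, NR1H2, NR1H3 and LPCAT3. They were chosen by name and found in the deposited count table by their Ensembl ID without its version. They lie on chromosomes 9 (ABCA1), 21 (ABCG1), 6 (MYLIP), 18 (NPC1), 14 (NPC2), 19 (APOE and NR1H2), 11 (NR1H3) and 12 (LPCAT3). They are 9 of the 60669 genes in the table, and all 9 were among the 18720 genes that passed the filter on low counts and were tested. RNA was sequenced from 6 established human ovarian cancer cell lines, each treated for 6 h with 8 µM quinacrine (QC), an antimalarial drug, or with vehicle, which the labels call a buffer. HeyA8, SKOV3 and OV2008 are the chemosensitive lines. Their isogenic resistant partners are HeyA8_MDR, SKOV3_TR and OV2008_C13, described in the study's methods as resistant to carboplatin, taxol and cisplatin. There was 1 library per line and treatment, 12 in all, so the 3 lines of a group were its replicates and a change within 1 line had no replicate check. The labels and methods do not describe clones, passages or separate cultures of a line.

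LXRα (NR1H3) and LXRβ (NR1H2) are nuclear receptors that bind DNA together with a retinoid X receptor and are switched on by oxysterols, the oxidised forms of cholesterol that build up when a cell holds too much of it. Their best known targets lower the sterol load of the cell. ABCA1 and ABCG1 pump cholesterol and phospholipid to acceptors outside the cell, APOE is a lipid carrier, MYLIP (also called IDOL) is a ubiquitin ligase that marks lipoprotein receptors for breakdown, and LPCAT3 puts polyunsaturated chains into membrane phospholipids. NPC1 and NPC2 act at an earlier step and hand cholesterol from the lumen of the lysosome to its membrane, the step from which cholesterol reaches the receptors' ligands and the pumps. Quinacrine is a weak base of the kind that collects in lysosomes.

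Total counts on genes lay between 17782556 and 30585059 per library. The HeyA8 QC library stood apart. For the 285 genes that were at least 8-fold higher in HeyA8_MDR than in HeyA8 (vehicle libraries), the level in the HeyA8 QC library was shifted toward HeyA8_MDR by 39.6% of the gap at the median, on the scale of CPM (read counts normalized to the size of the library). In the other QC libraries the same shift toward the partner line was between 0% and 6.81%. For genes at least 8-fold lower in the partner line the shift was 52.7% in HeyA8, 31.2% in HeyA8_MDR (over the same 285 genes, toward HeyA8), 18.7% in OV2008 and between 4.68% and 11.7% in the other lines. For these 285 genes the QC library of each line of the HeyA8 family thus lay nearer than its vehicle library to the partner's vehicle level. The genes were chosen by the gap between the same vehicle libraries from which the shift is measured. How much of the shift comes with that choice was not tested. Results that rest on the HeyA8 library are given with and without it, and values without HeyA8_MDR are given where a call turned on that line. The defining leukocyte and macrophage genes PTPRC, CD14, CSF1R, AIF1 and CD163 had at most 18 counts in any library, and AIF1 had 0. PAX8, a marker of ovarian epithelium, lay between 234 and 480 CPM in the HeyA8 and SKOV3 lines. In OV2008 and OV2008_C13 it lay between 7.56 and 24.8 CPM, and the squamous gene KRT5 lay between 2550 and 11212 CPM there. The ovarian epithelial genes were not uniform: KRT7 and SOX17 were also lower in the OV2008 lines, but EPCAM, KRT8 and KRT18 were higher. In vehicle, EPCAM stood at 219 and 205 CPM in OV2008 and OV2008_C13, against at most 52.4 CPM in the other lines. WT1 and MUC16 did not separate the families.

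Compared per kilobase of exon in the vehicle libraries, the lysosomal genes led. The median level over the 6 lines was 24.6 CPM per kb for NPC2 and 18.4 for NPC1, followed by 12.3 for the receptor NR1H2, 5.29 for ABCA1, 3.59 for LPCAT3, 3.30 for MYLIP, 1.99 for NR1H3, 0.914 for ABCG1 and 0.334 for APOE. Over the lines, the ranges of each pair of neighbours in this order overlapped. Variation between lines differed widely among the members. NR1H2 varied only 1.72-fold between its lowest and highest line, LPCAT3 2.65-fold, NR1H3 3.25-fold, NPC1 4.31-fold and NPC2 5.85-fold, whereas ABCA1 varied 30.2-fold, MYLIP 39.6-fold, ABCG1 52.3-fold and APOE 392-fold. The 4 genes that varied most are the exporters, the lipid carrier and the ligase. For ABCG1 and MYLIP the lowest level was that of the HeyA8 vehicle library, on 10 and 21 counts. In the other vehicle libraries ABCG1 lay between 4.99 and 23.2 CPM and MYLIP between 6.91 and 36.9 CPM. The wide ranges of these 2 genes thus rest on that library.

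**Figure D1:**
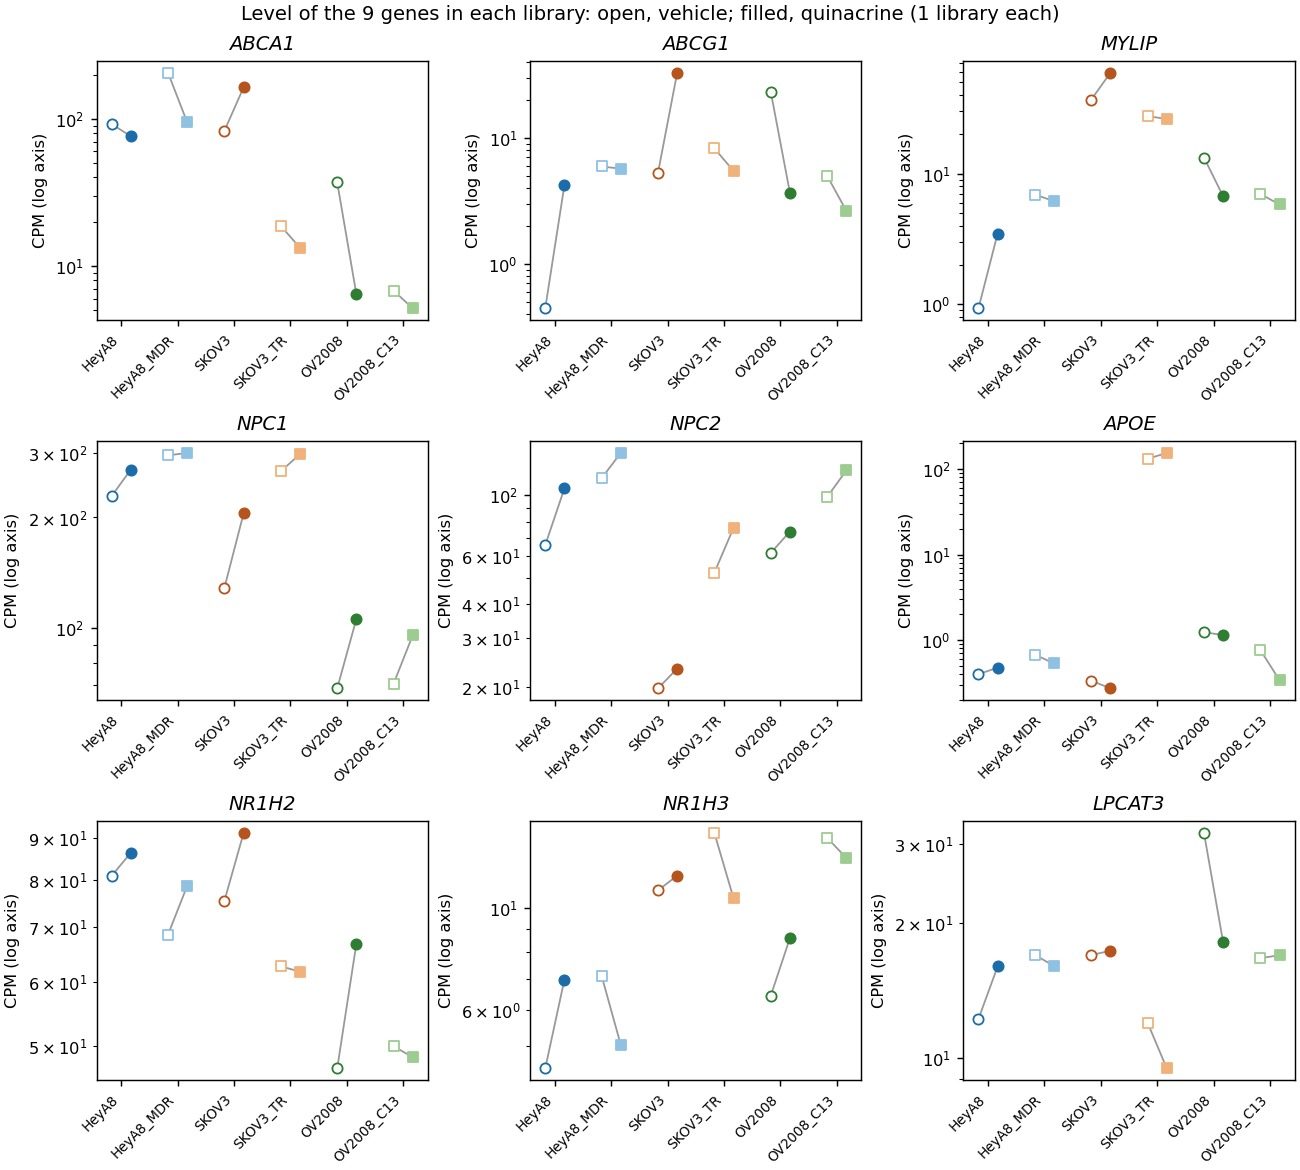
Level of each of the 9 genes in the 12 libraries (CPM, log axis), with an open vehicle point and a filled QC point for each line and 1 library per point. In vehicle, NR1H2, LPCAT3, NR1H3, NPC1 and NPC2 varied between 1.72-fold and 5.85-fold over the lines, ABCA1, ABCG1 and MYLIP between 30.2-fold and 52.3-fold, and APOE stood at 131 CPM in the SKOV3_TR vehicle library against at most 1.23 CPM in the other vehicle libraries. The ranges of ABCG1 and MYLIP rest on the HeyA8 vehicle library, with 10 and 21 counts.

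ABCA1, the pump that loads cholesterol onto apolipoprotein A-I, was lower with QC in 5 of 6 lines and higher in SKOV3. In vehicle it stood at 92.1 CPM in HeyA8, 205 in HeyA8_MDR, 83.0 in SKOV3, 18.7 in SKOV3_TR, 37.02 in OV2008 and 6.79 in OV2008_C13. With QC the levels were 76.1, 94.5, 164, 13.3, 6.44 and 5.16 CPM in the same order. OV2008 thus dropped to the level of its resistant partner, and HeyA8_MDR, the line with the highest vehicle level, to near that of HeyA8. In bulk RNA, fewer cells that express a gene and less of its RNA per cell cannot be told apart. The QC level was 0.174 of vehicle in OV2008 (95% interval 0.144 to 0.208, exact binomial, counting error only), 0.460 in HeyA8_MDR (0.434 to 0.488) and 1.97 times vehicle in SKOV3 (1.87 to 2.08). In HeyA8, SKOV3_TR and OV2008_C13 it was 0.826, 0.712 and 0.760 of vehicle. Over all 6 lines edgeR's quasi-likelihood test gave a log2 change of -0.61 ± 0.33 (SE), with an unadjusted p of 0.0859 and an adjusted p of 0.396. Without HeyA8 the estimate was -0.69 (unadjusted p = 0.0817), and without HeyA8_MDR it was -0.50 (unadjusted p = 0.191, edgeR). It moved further without OV2008, to -0.26 (unadjusted p = 0.281), and without SKOV3, to -0.94 (unadjusted p = 0.00464, edgeR). The call depended on the filter on low counts: with no filter and 39590 genes tested, the same change of -0.61 had an edgeR adjusted p of 0.00957.

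The ABCA1 start region is shown because ABCA1 carries, upstream of its start, a direct repeat of receptor hexamers 4 bases apart, the arrangement that LXR with its partner is known to bind. The line below gives the 150 bases before the start on the gene's strand (chr9:104928156-104928305, minus strand, GRCh38.p14, RefSeq) with the repeat in capitals, and the line after it gives the repeat as read on the other strand (chr9:104928209-104928224) with the hexamers in capitals.
ABCA1: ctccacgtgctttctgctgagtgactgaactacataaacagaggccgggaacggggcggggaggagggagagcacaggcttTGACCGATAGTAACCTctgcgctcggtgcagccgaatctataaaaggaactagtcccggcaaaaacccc
ABCA1 site: AGGTTActatCGGTCA
The repeat runs from 69 to 54 bases before the start. Windows of 300 bases (250 before to 50 after a start) were read on both strands for the loose pattern NGGTNANNNNNGGTNA, which 0.624% of all 35116 windows held, and for the consensus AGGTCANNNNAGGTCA, which 0.0199% held. Of the 8 members with a window, ABCA1 held the loose pattern and none held the consensus. ABCA1 also held an E-box (CACGTG) from 147 to 142 bases before the start, a motif in 7.26% of windows. These letter matches describe the windows and are not evidence of binding. ABCG1 had no window.

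ABCG1, which exports cholesterol to lipoprotein particles, moved further than any other member, in both directions. Its vehicle levels were 0.443 CPM in HeyA8, 5.92 in HeyA8_MDR, 5.27 in SKOV3, 8.24 in SKOV3_TR, 23.2 in OV2008 and 4.99 in OV2008_C13. With QC they were 4.20, 5.69, 32.8, 5.46, 3.66 and 2.64 CPM. OV2008 had the highest vehicle level and SKOV3 by far the highest QC level. The QC level was 6.22 times vehicle in SKOV3 (interval 5.14 to 7.58), from 126 to 722 counts, and 0.158 of vehicle in OV2008 (0.123 to 0.200), from 414 to 83 counts. In HeyA8 it was 9.49 times vehicle (4.98 to 20.3), but this ratio rests on 10 counts in the vehicle library, and the QC level lay 68.6% of the way to that of untreated HeyA8_MDR. The other 3 lines, all resistant, were at 0.960, 0.663 and 0.528 of vehicle in HeyA8_MDR, SKOV3_TR and OV2008_C13. Over all lines these opposite changes left a log2 estimate of 0.12 ± 0.64 (SE) with an edgeR adjusted p of 0.954, and of -0.37 without HeyA8.

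**Figure D2:**
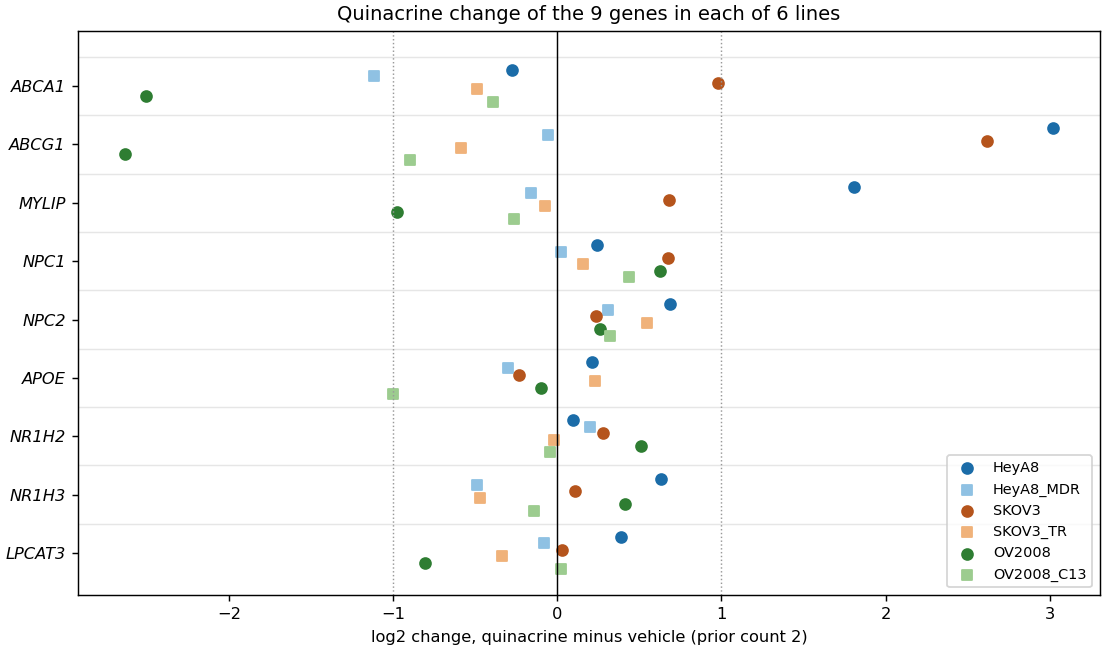
QC against vehicle in each line for the 9 genes, as the log2 ratio of normalized CPM (prior count 2); each point is 1 line and the dotted lines mark 2-fold. NPC1 and NPC2 lie above 0 in all 6 lines, whereas ABCG1 ranges from -2.64 in OV2008 to 3.02 in HeyA8.

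MYLIP, the ligase that removes lipoprotein receptors, had the sign of ABCG1 in each line. It stood in vehicle at 0.931 CPM in HeyA8, 6.91 in HeyA8_MDR, 36.9 in SKOV3, 27.6 in SKOV3_TR, 13.3 in OV2008 and 6.99 in OV2008_C13. With QC it stood at 3.47, 6.16, 59.1, 26.2, 6.70 and 5.80 CPM. SKOV3 was again the line with a clear increase (1.60 times vehicle, interval 1.47 to 1.75) and OV2008 the one with the clearest decrease (0.505, interval 0.409 to 0.622). HeyA8 was 3.73 times higher (2.31 to 6.30, from 21 to 95 counts), at 42.5% of the way to untreated HeyA8_MDR. The edgeR estimate over all lines was 0.10 ± 0.28 (SE; adjusted p = 0.892), and -0.15 without HeyA8. ABCA1, ABCG1 and MYLIP were thus all higher with QC in SKOV3 and all clearly lower in OV2008, while HeyA8 was split, with ABCA1 lower and the other two higher. In the 3 resistant lines the 3 genes were below vehicle, but not each of them beyond counting error. ABCG1 in HeyA8_MDR had an interval of 0.724 to 1.27, which includes no change, as did MYLIP at 0.892 of vehicle in HeyA8_MDR (0.683 to 1.16), at 0.949 in SKOV3_TR (0.85 to 1.06) and at 0.830 in OV2008_C13 (0.670 to 1.03). SREBF1, an LXR target that drives fatty acid synthesis and that was picked out after its values were seen, was also higher in SKOV3 (log2 1.29) and lower in SKOV3_TR (-0.52), OV2008 (-1.45) and OV2008_C13 (-0.60), and was higher in HeyA8_MDR (0.19).

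NPC1 and NPC2 were the members whose QC level lay above vehicle in all 6 lines, for NPC1 beyond counting error in 5 of them. NPC1, the membrane protein of the pair, went from 229 to 270 CPM with QC in HeyA8, from 295 to 300 in HeyA8_MDR, from 129 to 205 in SKOV3, from 267 to 298 in SKOV3_TR, from 68.4 to 106 in OV2008 and from 70.5 to 95.5 in OV2008_C13. The lines with the lower vehicle levels gained most, with 1.59 times vehicle in SKOV3 (interval 1.52 to 1.67), 1.54 in OV2008 (1.44 to 1.66) and 1.36 in OV2008_C13 (1.28 to 1.44), against 1.02 in HeyA8_MDR, whose interval of 0.977 to 1.05 includes no change. With library size as the only scaling, NPC1 in HeyA8_MDR was slightly lower with QC (log2 -0.12). NPC2, the soluble partner, went from 65.7 to 106 CPM in HeyA8, from 115 to 143 in HeyA8_MDR, from 19.7 to 23.2 in SKOV3, from 52.1 to 76.0 in SKOV3_TR, from 61.5 to 73.6 in OV2008 and from 98.4 to 123 in OV2008_C13. Its gains ran from 1.18 times vehicle in SKOV3 (1.04 to 1.34) to 1.46 in SKOV3_TR (1.36 to 1.56) and 1.61 in HeyA8 (1.51 to 1.72). The lines that gained most differed between the pair: SKOV3 and OV2008 had the largest gains in NPC1 (log2 0.67 and 0.63) and the smallest in NPC2 (0.24 and 0.26). The QC level of HeyA8 lay 80.9% of the way to untreated HeyA8_MDR for NPC2 and 61.9% for NPC1.

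Over all 6 lines edgeR gave log2 changes of 0.39 ± 0.11 (SE) for NPC2, with an unadjusted p of 0.00376 and an adjusted p of 0.169, and 0.36 ± 0.12 for NPC1, with 0.0119 and 0.207. They were the 2 of 9 members under an unadjusted p of 0.05, a threshold that 15.2% of all tested genes passed, and 0 of the 18720 genes passed after adjustment in edgeR. DESeq2 called 518 genes after adjustment, and gave NPC2 an adjusted p of 0.0272 and NPC1 0.0705. Across the alternatives that of NPC2 ranged from 0.0272 to 0.99998, the latter without the cell line block. Without HeyA8 the log2 changes were 0.33 for NPC2 (edgeR unadjusted p = 0.0161) and 0.38 for NPC1 (unadjusted p = 0.0160), and without SKOV3 that of NPC1 was 0.29 (unadjusted p = 0.0550). Members higher with QC in all 6 lines numbered 2 of 9, against 4.13% of all tested genes (NPC2 alone with library size as the only scaling), and 0 of 9 were lower in all 6, against 4.60%. Neither gene passed 2-fold in any line. The 6 lines are pairs of a parent and its resistant partner, so these p-values rest on fewer independent origins than lines.

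The 120 bases before the start of each of the pair are shown because both genes lay above vehicle in all 6 lines, with the letters of the GC box (GGGCGG) in capitals. They lie at chr18:23586507-23586626 for NPC1 and chr14:74493513-74493632 for NPC2 (both minus strand, GRCh38.p14, RefSeq).
NPC1: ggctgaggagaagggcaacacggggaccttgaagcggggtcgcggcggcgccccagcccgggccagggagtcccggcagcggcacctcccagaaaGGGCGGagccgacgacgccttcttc
NPC2: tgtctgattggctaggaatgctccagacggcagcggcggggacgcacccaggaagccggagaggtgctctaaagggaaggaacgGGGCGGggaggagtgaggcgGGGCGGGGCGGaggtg
NPC1 held 1 GC box in this stretch and NPC2 held 3, overlapping repeats included. A GC box on either strand was present in 45% of all windows and in all 8 members that have a window, so it does not set the pair apart, and neither window held the E-box or the direct repeat.

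APOE, the lipid carrier that accepts exported cholesterol, was a gene of 1 line. SKOV3_TR held 131 CPM in vehicle and 154 with QC (4442 and 2907 counts), and the 10 libraries of the other lines held between 0.272 and 1.23 CPM, from 6 to 26 counts. SKOV3, the parent of SKOV3_TR, was among the lowest, with 0.335 CPM in vehicle. Within SKOV3_TR the QC level was 1.17 times vehicle (interval 1.12 to 1.23). The lower level in OV2008_C13 with QC, 0.443 of vehicle, rests on 23 and 9 counts and its interval of 0.180 to 0.994 nearly reaches no change. In the other 4 lines the intervals included no change, the narrowest being 0.507 to 1.72 in OV2008. Over all lines the edgeR log2 estimate was -0.13 ± 0.22 (SE; adjusted p = 0.815).

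LPCAT3, the phospholipid remodelling enzyme, stayed between 9.49 and 18.1 CPM in 11 of the 12 libraries. The exception was the OV2008 vehicle library at 31.8 CPM, and QC brought that line to 18.1 CPM, 0.571 of vehicle (interval 0.501 to 0.649). HeyA8 stood at 12.2 and 16.0 CPM, HeyA8_MDR at 16.99 and 16.05, SKOV3 at 16.98 and 17.35, SKOV3_TR at 11.99 and 9.49, and OV2008_C13 at 16.71 and 16.96 CPM in vehicle and QC. The edgeR estimate over all lines was -0.13 (95% interval -0.49 to 0.23, adjusted p = 0.750). The gene shares 66% of its exonic length with EMG1 on the opposite strand, and since the strand setting of the counting is not given in the sources used here, reads of the pair cannot be told apart.

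Neither receptor passed 2-fold in any line. NR1H2 (LXRβ) stood in vehicle at 81.0 CPM in HeyA8, 68.6 in HeyA8_MDR, 75.5 in SKOV3, 62.7 in SKOV3_TR, 46.9 in OV2008 and 49.97 in OV2008_C13. Its QC level was between 0.970 and 1.42 times vehicle, with the highest ratio in OV2008, and the edgeR estimate was 0.17 (95% interval -0.08 to 0.42, adjusted p = 0.505). NR1H2 shares 22.1% of its exonic length with NAPSA on the opposite strand. NR1H3 (LXRα) was the scarcer receptor, with 1.99 against 12.3 CPM per kb at the median. It went from 4.48 to 6.98 CPM with QC in HeyA8, from 10.9 to 11.8 in SKOV3 and from 6.44 to 8.60 in OV2008, and from 7.12 to 5.04 in HeyA8_MDR, from 14.6 to 10.5 in SKOV3_TR and from 14.2 to 12.8 in OV2008_C13. It was thus higher in all 3 sensitive lines and lower in all 3 resistant lines. In HeyA8, the sensitive line with the largest gain, the QC level lay 94.9% of the way to that of untreated HeyA8_MDR. In 1 line of each kind the difference was within counting error, SKOV3 with 1.08 times vehicle (interval 0.904 to 1.28) and OV2008_C13 with 0.904 (0.782 to 1.04), and with library size as the only scaling OV2008_C13 turned slightly higher (log2 0.01). The estimate over all 6 lines was 0.00 ± 0.19 (SE; edgeR adjusted p = 0.994). This pattern, in either orientation, was shown by 0.983% of all tested genes and, of the members, by NR1H3 alone.

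The question of whether QC acted differently in resistant and in sensitive cells was tested as the difference of the effects. This fit had each line as a block and did not pair the QC effects of a parent and its resistant line. QC effects that differ among families thus count as spread in it. NR1H3 had the smallest p of the members, with a difference of -0.75 (resistant minus sensitive, log2; 95% interval -1.52 to 0.02; edgeR unadjusted p = 0.0540, adjusted p = 0.9998), and without HeyA8 it was -0.62 (unadjusted p = 0.144). Of the 9 members 0 passed the unadjusted threshold, as did 1.16% of all tested genes (217 genes), with 0 genes after adjustment in edgeR and 1 in DESeq2. The intervals of the others were wide for the exporters, -4.44 to 0.99 for ABCG1 and -1.63 to 1.32 for ABCA1, and narrower for NPC2, -0.54 to 0.53. Within the groups, NPC1 (log2 0.51 ± 0.18 SE, edgeR unadjusted p = 0.0143) and NPC2 (0.40 ± 0.17, unadjusted p = 0.0425) passed the threshold in sensitive lines, 2 of 9 members against 6.59% of all genes. In resistant lines NPC2 did (0.39 ± 0.17, edgeR unadjusted p = 0.0438), 1 of 9 against 6.03%, and NPC1 had 0.20 ± 0.18 (unadjusted p = 0.272). The difference for NPC1 was -0.31 (95% interval -0.86 to 0.24, edgeR unadjusted p = 0.245). No gene passed after adjustment in edgeR in either group, and DESeq2 called 31 genes in sensitive and 0 in resistant lines. Without OV2008, ABCG1 in sensitive lines had 2.86 (edgeR unadjusted p = 3.99e-06, adjusted p = 0.0269), a value that rests on SKOV3 and on the 10 vehicle counts of HeyA8, against 1.20 with all 3 lines. Without HeyA8, NPC2 in sensitive lines had 0.25 (edgeR unadjusted p = 0.282) and NPC1 0.65 (unadjusted p = 0.0126).

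The lines were also grouped by family of origin. Both exporters were lower with QC in both lines of the OV2008 family, beyond counting error. The other families were not uniform: both exporters were higher in SKOV3 and lower in SKOV3_TR, and in the HeyA8 family ABCA1 was lower in both lines while ABCG1 was higher in HeyA8 and near vehicle in HeyA8_MDR. A test of whether the QC effect differed among the HeyA8, SKOV3 and OV2008 families gave ABCG1 an unadjusted p of 0.0484 and an edgeR adjusted p of 0.356, and ABCA1 0.0682 and 0.388. ABCG1 was the 1 member of 9 under the unadjusted threshold, against 14.0% of all tested genes. Leaving out a line leaves its family with 1 line and no replicate in this test, so no p-values are given for those fits. The ABCG1 call was lost without OV2008, and the calls of ABCA1 and MYLIP changed with the line left out. With all lines, the ABCG1 call was also lost in edgeR with library size only (unadjusted p = 0.0689). The same held with at least 10 counts in every library (unadjusted p = 0.0549) and without the cell line block (unadjusted p = 0.118). Without HeyA8_MDR the HeyA8 family rests on HeyA8 alone, with 10 vehicle counts for ABCG1 and 21 for MYLIP. With all lines and no filter on low counts, ABCG1 and ABCA1 passed after adjustment in edgeR, with adjusted p of 2.1e-08 and 9.5e-05. In single lines the counts of members past 2-fold in either direction stood beside those of all tested genes as follows. They were 2 of 9 in HeyA8 (ABCG1 and MYLIP, both higher) against 17.1%, 1 of 9 in HeyA8_MDR (ABCA1, lower) against 16.6%, and 1 of 9 in SKOV3 (ABCG1, higher) against 8.26%. In SKOV3_TR there were 0 of 9 against 9.37%, in OV2008 2 of 9 (ABCA1 and ABCG1, both lower) against 18.0%, and in OV2008_C13 1 of 9 (APOE, lower, on 9 QC counts) against 11.4%.

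**Figure D3:**
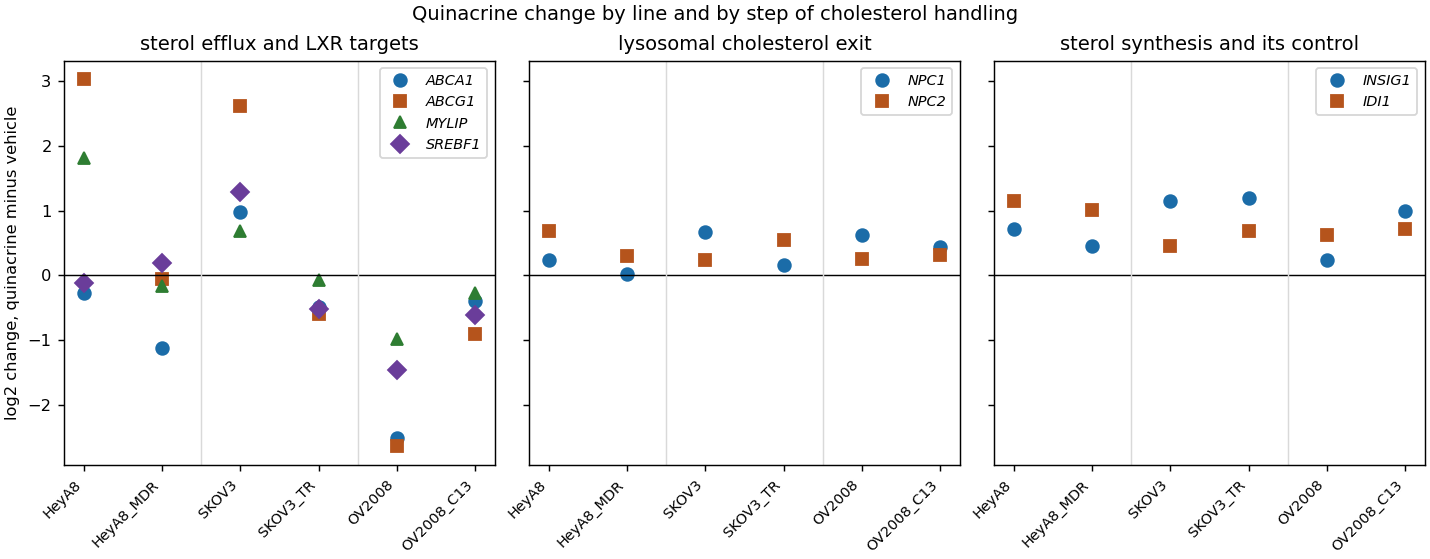
QC against vehicle in each line (log2 ratio of normalized CPM) by step of cholesterol handling: efflux and LXR targets on the left, exit from the lysosome in the middle, and sterol synthesis and its control on the right. The genes of the left panel reach from -2.64 to 3.02, NPC1 and NPC2 stay between 0.02 and 0.69, and INSIG1 and IDI1 stay between 0.24 and 1.19.

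Before any treatment, ABCA1 differed more than 2-fold between the resistant line and its parent in all 3 families, higher in HeyA8_MDR and lower in SKOV3_TR and OV2008_C13, and the other members past 2-fold varied by family. HeyA8_MDR had more of the 3 sterol-lowering targets than HeyA8, with 2.23-fold more ABCA1, 13.4-fold more ABCG1 and 7.42-fold more MYLIP. The ABCG1 and MYLIP ratios rest on 10 and 21 counts in the HeyA8 vehicle library. SKOV3_TR had 392-fold more APOE, 2.64-fold more NPC2 and 2.08-fold more NPC1 than SKOV3, and 4.44-fold less ABCA1. OV2008_C13 had 5.45-fold less ABCA1 and 4.64-fold less ABCG1 than OV2008, and 2.21-fold more NR1H3. Past 2-fold were thus 3 of 9 members in the HeyA8 family against 29.5% of all tested genes, 4 of 9 in the SKOV3 family against 33.1%, and 3 of 9 in the OV2008 family against 21.3%. The difference between these shares was not tested. With QC the ABCA1 ratio between OV2008_C13 and OV2008 narrowed to 1.25-fold less and the ABCG1 ratio to 1.39-fold less, while SKOV3_TR came to have 12.3-fold less ABCA1 than SKOV3. Between the QC libraries of HeyA8_MDR and HeyA8 the ratios narrowed to 1.24-fold more ABCA1, 1.35-fold more ABCG1 and 1.77-fold more MYLIP.

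**Figure D4:**
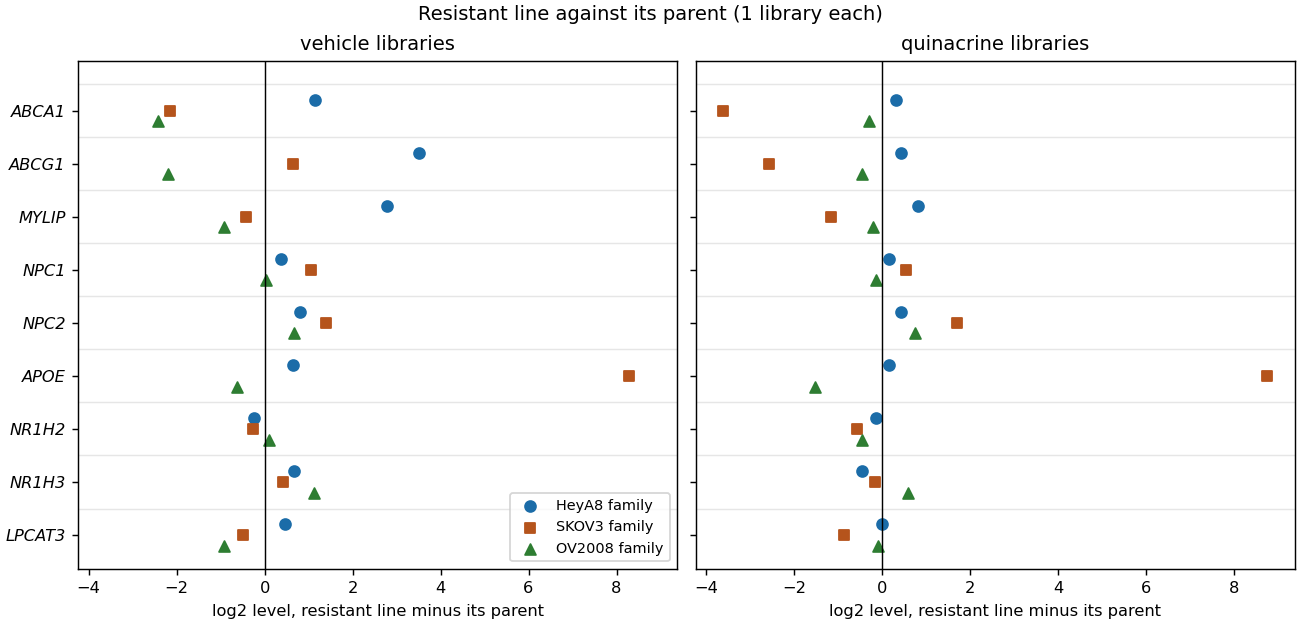
Resistant line against its parent in each family, in vehicle and in QC libraries, as the log2 ratio of normalized CPM. NPC2 lies above 0 in all 3 families under both treatments, and ABCA1 lies above 0 in the HeyA8 family and below 0 in the other families.

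NPC2 was the member that was higher in the resistant line in 3 of 3 families and under both treatments, a pattern of 5.52% of all tested genes. It was 1.76-fold higher in HeyA8_MDR, 2.64-fold in SKOV3_TR and 1.60-fold in OV2008_C13 in vehicle, and 1.35-fold, 3.27-fold and 1.67-fold higher with QC. The vehicle means were 88.6 ± 32.7 CPM in resistant and 49.0 ± 25.4 CPM in sensitive lines (SD, n = 3 each). With the family as a block, edgeR gave a log2 difference of 0.97 ± 0.31 (SE; unadjusted p = 0.0206, adjusted p = 0.994), and 0.95 in the QC libraries of the same lines (unadjusted p = 0.0272). It was the 1 member of 9 under the unadjusted threshold, against 3.71% of all genes, with 0 genes after adjustment in edgeR and 47 in DESeq2, where NPC2 had an adjusted p of 0.328. Without the SKOV3 family the difference was 0.76 (edgeR unadjusted p = 0.0714) and without the HeyA8 family 1.04 (unadjusted p = 0.0567). ABCA1 had -1.25 ± 0.81 in the same fit (unadjusted p = 0.173), and -2.29 without the HeyA8 family (edgeR unadjusted p = 0.00259). NR1H3 was also higher in the 3 resistant lines in vehicle (log2 0.66, 0.41 and 1.13) but not with QC, when it was lower in HeyA8_MDR and SKOV3_TR than in their parents.

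The vehicle levels were also compared among the 3 families of origin. For NPC1 the levels of 68.4 and 70.5 CPM in the OV2008 family lay below those of the other 4 lines, between 129 and 295 CPM (edgeR adjusted p = 0.0418). Of the 9 members 3 passed the edgeR threshold in this test (NPC1, APOE with an unadjusted p of 0.0134 and MYLIP with 0.0297), against 40.9% of all tested genes. After adjustment 1 of 9 passed in edgeR, against 23.1%. The APOE result rests on SKOV3_TR and was lost without it. The adjusted call of NPC1 was lost when HeyA8, HeyA8_MDR, OV2008 or OV2008_C13 was left out, which in each case leaves a family with 1 line. The low PAX8 and the high KRT5, EPCAM, KRT8 and KRT18 of the OV2008 lines moved with this contrast, and their part in it was not tested.

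The rest of the pathway was read from 7 gene lists, 64 genes beside the members, in the edgeR test over all 6 lines, where 1495 of all genes were higher and 1345 lower at an unadjusted p under 0.05 and the median log2 change was 0.00. None of the listed genes passed after adjustment in edgeR, while IDI1 and INSIG1 were among those that did in DESeq2. Of the 12 tested targets of SREBP2 (the factor that responds to low sterol) and lipoprotein receptors, 6 were higher and 2 lower, with a median of 0.30. IDI1, an enzyme of the isoprenoid branch of sterol synthesis, had 0.78 ± 0.12 (SE; adjusted p = 0.123), and INSIG1, which holds the SREBP complex in the endoplasmic reticulum, had 0.81 ± 0.14 (adjusted p = 0.123). Both were higher in 6 of 6 lines. Among 9 tested other LXR targets, 1 was higher and 1 lower with a median of 0.00. FASN, the fatty acid synthase, had -0.34 ± 0.14 and was lower in 5 of 6 lines, and APOD, a lipocalin, had 1.56 ± 0.64 on at most 46 counts in a library.

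Of the 6 tested LXR partners and cofactors, 0 were higher and 1 was lower (median -0.10). The lower one was RXRA, the common partner of both receptors, with -0.58 ± 0.26 (SE; edgeR adjusted p = 0.313). The lines with the most marked decreases were OV2008, where RXRA went from 313 to 67.5 CPM, and OV2008_C13, where it went from 222 to 112 CPM. Without OV2008 the estimate was -0.28 (edgeR unadjusted p = 0.127). Among 4 tested genes of oxysterol and desmosterol metabolism 1 was higher, CYP46A1, which makes 24-hydroxycholesterol, with 1.50 ± 0.53 (SE) and at most 46 counts in a library. Lysosomal and membrane cholesterol transfer, the list nearest to NPC1 and NPC2, had 0 of 11 higher and 1 lower, TMEM97 (-0.30 ± 0.13), a protein known to bind NPC1, with a list median of -0.02. Esterification and storage had 0 of 4 in either direction with a median of 0.35. Of 8 paralogs of the members, 1 was lower, LPCAT1 (-0.51 ± 0.16), and 0 were higher, with a median of 0.09.

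The genes whose level over the 12 libraries was most like that of ABCA1 were LINC01117 (Pearson's r = 0.959), ZFTRAF1 (0.952) and PCDHGA10 (0.951). These are descriptions over 12 libraries of 6 lines, which share lines and families. Among the members, ABCG1 and MYLIP were most alike (r = 0.787), followed by ABCA1 and NR1H2 (0.717).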

How the data were processed

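RNA-seq was made from polyA RNA of 12 libraries with the TruSeq RNA kit. The values used are raw counts per gene as deposited by the authors, without normalization. The study's methods name TopHat with hg19 and HTSeq, whereas the submitters' processing notes name STAR 2.7.3a, HTSeq 0.6.1p1 and GRCh38.p13, and the count table names no build. Neither annotation nor strand setting is given in the sources used here. Symbols were paired with 58620 of the 60669 Ensembl IDs.

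The fits used edgeR 4.0.16 (with limma 3.58.1, under R 4.3.3). The filter was filterByExpr (minimum count 10, minimum total 15), libraries were scaled by TMM, and quasi-likelihood fits had each cell line as a block. Levels in vehicle were tested with the family as a block (resistance) or with no block (family). All tests were two-sided with Benjamini-Hochberg adjustment over all 18720 genes, and unadjusted p-values under 0.05, the study's threshold, were also counted. For single lines, log2 ratios of CPM were formed with a prior count of 2. Levels per kb used exonic lengths of a GENCODE annotation on GRCh37. Promoter sequences are RefSeq's on GRCh38.p14, with an entry for 8 of 9 members. The pairing by cell line was checked: deviations of vehicle and QC libraries from their group means correlated at 0.893 to 0.929 in the 6 lines. Intervals within 1 line cover counting error only, and p-values measure the spread between lines. The tests over all lines counted each line as a replicate, although a resistant line and its parent share an origin. Their p-values thus rest on fewer independent origins than lines. In the tests among families, a parent and its own resistant line were the replicates of a family. Depth was 17782556 to 30585059 counts per library.

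The members and lists were chosen with earlier results of these data known. Named beside the 9 members are the 2 genes with the smallest unadjusted p under 0.05 of each list, and the 3 genes most correlated with ABCA1. An item that the rule also names is not reported here but stayed in the tests and lists. SREBF1, KRT5, PAX8 with the other ovarian epithelial genes, and the genes of the leukocyte list fall outside this rule, and SREBF1 was chosen after its values were seen. The alternatives were a fit without the block, DESeq2 1.42.0, other size factors, other filters, the libraries of 1 group, and leaving out each line or family. The comparison of resistant and sensitive lines in QC libraries was added after seeing the data. The fits were tested on simulated data. Figures were drawn with matplotlib 3.10.9.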

Additional observations from a re-analysis of the deposited data

Results flagged for a closer look

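The QC effect on ABCG1 differed among the 3 families of lines with an unadjusted p of 0.0484 (edgeR adjusted p = 0.356). The call was lost without OV2008, a fit that leaves its family with 1 line. It was also lost with all lines under library size only, the stricter filter or no cell line block. An unadjusted p under 0.05 in this test was reached by 14.0% of all tested genes. The QC level of ABCG1 was 9.49 times vehicle in HeyA8, 0.960 in HeyA8_MDR, 6.22 in SKOV3, 0.663 in SKOV3_TR, 0.158 in OV2008 and 0.528 in OV2008_C13 (1 library per line and treatment). NR1H3 was higher with QC in all 3 sensitive lines and lower in all 3 resistant lines, with counting intervals that include no change in SKOV3 (0.904 to 1.28) and OV2008_C13 (0.782 to 1.04), and its difference was -0.75 on the log2 scale (resistant minus sensitive, edgeR unadjusted p = 0.0540, adjusted p = 0.9998). Its QC level in HeyA8 lay 94.9% of the way to that of untreated HeyA8_MDR, and without HeyA8 the difference was -0.62.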

How the results depend on the processing

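Each result was recomputed under the alternatives, with members counted at an unadjusted p under 0.05. Without the replicate block, which drops the pairing by cell line, 0 members in place of 2 passed over all 6 lines, 0 in place of 2 in sensitive lines, 0 in place of 1 in resistant lines and 0 in place of 1 in the test among families. The block changed the genome-wide count over all lines from 108 to 2840. Without it, 30 of 18720 genes passed in sensitive lines, 23 in resistant lines and 224 among families. With library size only, 0 members passed in resistant lines and 0 among families, against 1062 and 2701 of 18720 genes. With no filter, 3 members (ABCA1 added) passed over all 6 lines, ABCA1, ABCG1 and NPC1 passed in sensitive lines, ABCA1 in place of NPC2 in resistant lines, 1 member (ABCG1) in the difference, 3 among families (ABCG1 and ABCA1 also after adjustment), 3 between resistant and sensitive vehicle libraries and 6 in vehicle levels among families, 4 of these after adjustment. All genes under this threshold with no filter numbered, for the QC effects in the same order, 3638, 1918, 1637, 501 and 3699 of 39590. For the comparisons of vehicle libraries they numbered 1583 and 10244 of 36276. With at least 10 counts in every library, 1 (NR1H3) passed in the difference and 0 among families, against 120 and 2257 of 11602 genes. With only the 6 libraries of the group, 1 (NPC1) passed in sensitive lines, and ABCA1 (edgeR unadjusted p = 0.0067) in place of NPC2 (0.0662) in resistant lines. Genome-wide, 955 of 15633 and 1251 of 16217 genes passed in these fits. After adjustment, 3 members passed in vehicle levels among families under DESeq2 and 2 with library size only, where 4456 of 18720 genes passed. Genome-wide adjusted calls over all 6 lines, in sensitive lines, in resistant lines, in the difference, among families and between resistant and sensitive vehicle libraries were 0 in edgeR with the main settings, against 518, 31, 0, 1, 826 and 47 under DESeq2 and 791, 195, 35, 5, 961 and 146 in edgeR with no filter. For vehicle levels among families they were 4321, 6968 and 7559 in the same order. For the QC effect among families they were also 4 with library size only and 5 with the stricter filter. They shifted when a line was left out, which leaves its family with 1 line. Leaving out a line gave 0 to 18 in sensitive lines (18 without SKOV3) and 0 to 1 over all lines. The cause of these shifts was not tested.

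Leaving out each line or family gave 1 to 2 members in sensitive lines (ABCG1 after adjustment without OV2008, adjusted p = 0.0269) and 0 to 1 in resistant lines. It gave 0 to 3 in the difference (3 without OV2008: ABCA1, ABCG1 and MYLIP) and 0 to 1 between resistant and sensitive vehicle libraries (0 without the SKOV3 family). Without OV2008, 466 of 20213 genes passed in the difference and 813 in sensitive lines. Counts for the 2 tests among families are not given, since without a line a family has 1 line. The members that passed there changed with the line left out. The 6-line count stayed at 2 in each case, with ABCA1 in place of NPC1 without SKOV3. Genome-wide, between 2033 genes (of 20213, without OV2008) and 3103 genes (of 20007, without SKOV3) passed in these fits.

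In single lines, scaling by library size only turned the sign of 3 of the 54 QC changes, NPC1 in HeyA8_MDR (-0.12) and NR1H2 (0.11) and NR1H3 (0.01) in OV2008_C13, and relative log expression size factors turned that of NPC1 between OV2008_C13 and OV2008 (-0.010). Some estimates turned their sign, including values far from 0. Without the block these were APOE (0.22) and NR1H3 (-0.051) over all lines, ABCA1 in sensitive lines (0.21), APOE in resistant lines (0.22) and in the difference (0.27), and ABCA1 (0.13), ABCG1 (-0.58) and MYLIP (-0.27) between resistant and sensitive vehicle libraries. NR1H3 over all lines was -0.0033 with library size only. In the difference, NPC2 was 0.018 under DESeq2, 0.020 with relative log expression size factors and 0.0047 with the stricter filter, and LPCAT3 was -0.045 with library size only and -0.031 with no filter. In QC libraries the resistant minus sensitive values were -0.85 for ABCG1, -0.20 for MYLIP and -0.018 for NR1H3. Leaving out a line, the 6-line estimates ranged from -0.94 to -0.26 for ABCA1 (lowest without SKOV3, highest without OV2008), -0.43 to 0.70 for ABCG1, -0.15 to 0.33 for MYLIP, -0.12 to 0.10 for NR1H3, -0.24 to 0.0087 for LPCAT3 and -0.33 to 0.018 for APOE. In sensitive lines they ranged from -1.37 to 0.36 for ABCA1, -0.15 to 2.86 for ABCG1, -0.12 to 1.16 for MYLIP, -0.17 to 0.025 for APOE and -0.39 to 0.21 for LPCAT3, and in resistant lines from -0.050 to 0.094 for NR1H2 and -0.75 to 0.067 for APOE. The difference ranged from -1.04 to 0.68 for ABCA1, -0.078 to 0.14 for NPC2, -0.69 to 0.11 for APOE and -0.34 to 0.26 for LPCAT3. Between resistant and sensitive vehicle libraries the ranges were -0.78 to 2.14 for ABCG1, -0.67 to 1.19 for MYLIP and -0.71 to 0.022 for LPCAT3. Depth limits APOE outside SKOV3_TR and ABCG1 in the HeyA8 vehicle library.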
